A study of Mus musculus with 12 samples.

Results

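Mouse mesoderm labelled as ventricular heart mesoderm was compared with mesoderm labelled as blood-forming, both isolated from embryos at stage E7.25. The comparison took 6 of the 12 RNA-seq libraries of the series, 3 of each type, and the libraries were chosen by their titles alone. All 4 cell types of the series came from the mouse line Foxa2Cre:Rosa26-YFP. In this line Cre recombinase is made where Foxa2 is active and permanently switches on yellow fluorescent protein (YFP) from the Rosa26 locus, so YFP marks cells that expressed Foxa2 or descend from such cells, whether or not they still express it. The first group was cardiac mesoderm that was positive for YFP, and the second was hematopoietic mesoderm labelled KDR+, for which the labels give no YFP state. No treatment is named for either group, and the remaining 6 libraries were YFP-negative cardiac mesoderm and endoderm. The labels state neither the sort gates, nor the number of embryos or cells in a library, nor whether embryos were pooled. Nothing says that the libraries of a type came from separate embryos, so p-values measure only the spread between libraries, which may be technical. The main fit pools that spread over all 12 libraries of the series.

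During gastrulation, mesoderm leaves the primitive streak in waves. Early cells pass through a phase of Mesp1 expression and move to the front of the embryo, where they form the heart. Other cells enter the yolk sac and, under transcription factors of the ETS, GATA, RUNX and TAL1/LMO2 groups, become hemangioblasts, which give rise to the first blood and endothelial cells. Both routes start from cells that carry KDR, a receptor for vascular endothelial growth factor, and PDGFRA is widely used as a surface marker of the cardiac side.

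The 6 libraries held 4472800 to 5857568 reads counted in genes. Levels are given as CPM, the count per 1000000 reads of a library after trimmed-mean scaling, in the order of replicates 1, 2 and 3, and 3 counts corresponded to 0.520 to 0.723 CPM. Intervals and floors given below cover counting error only, since these reads carry no molecular identifier and copies of 1 molecule may be counted more than once. Libraries of 1 type differed widely. Correlations of log CPM across genes were 0.791 to 0.805 among YFP-positive and 0.745 to 0.811 among hematopoietic libraries. Between the types they were 0.732 to 0.791, so the ranges within and between types overlapped. Among the genes that reached 100 counts in at least 1 library of a type, 9.30% for the YFP-positive type and 15.0% for the hematopoietic type had 3 counts or fewer in another library of the same type, against 0.518% for endoderm. A pair of libraries stood apart from the others of their type. Hematopoietic library 3 had a summed level of 2969 CPM over 30 blood and hemangioblast factors, where libraries 1 and 2 had 4669 and 4738 CPM, and a summed level of 2101 CPM over 30 heart progenitor factors, where they had 1182 and 1055 CPM. YFP-positive library 2 had 1185 CPM over the blood factors, where libraries 1 and 3 had 762 and 622 CPM. What set these libraries apart was not tested.

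Of 14170 genes tested with edgeR's quasi-likelihood model fitted to all 12 libraries, 253 (1.79%) had a Benjamini-Hochberg adjusted p under 0.05 and are referred to as called. Of these, 163 (1.15%) were higher in YFP-positive cardiac mesoderm and 90 (0.635%) were higher in hematopoietic mesoderm. Before adjustment, 2766 of the 14170 genes had a p under 0.05, 1598 higher in YFP-positive and 1168 higher in hematopoietic mesoderm. An alternative fit with DESeq2 called 1491 of the 14170. The unadjusted and DESeq2 counts given for each list below are to be read beside these. On simulated counts with each type's own spread, unchanged genes exceeded the threshold of 0.05 among the calls of both fits. The levels of all 253 called genes did not overlap between the types, as was the case for 14.0% of all genes tested, and the median absolute log2 fold change of the called genes was 4.15. Log2 fold changes are YFP-positive minus hematopoietic, given with their standard error (SE). Negative values therefore mark genes that were higher in hematopoietic mesoderm. The deposited counts do not state how strand was treated, so reads of the called genes Runx1, Myb, Lyl1, Meis1, Egfl7, Dll1, Pcdh8, Pcdh19, Pdgfra, Foxf1, Otx2, Srrm4, Tmem63a, Ethe1, Wnk4, Dact1, Fgfr1, Itga8, Pcdh7, Reln, Mast4, Maf and Lcp1 and of the uncalled genes Tbx3, Hand2, Eomes, Zeb2, Notch1, Gli3, Bmpr1a, Fn1, Igf2, H19 and Cubn cannot be told apart from those of a gene that overlaps them on the other strand. In bulk libraries, fewer cells of a type and less RNA per cell cannot be told apart.

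The number of called genes depended on how the spread between libraries was modelled, and the spread of these 2 types was larger than that of the others. The number was 45 when only the 3 mesoderm types were fitted, 13 when only these 2 types were fitted and 12 in a limma voom fit with a variance for each type. With the replicate number as a block it was 133, of which 128 were among the 253. It was 426 without hematopoietic library 3 and 411 without hematopoietic library 2. Leaving out hematopoietic library 1 gave 165, and leaving out YFP-positive library 1, 2 or 3 gave 164, 139 or 106. The fit to all 12 libraries assumes a spread shared by the 4 types, whereas the biological coefficient of variation within a type was 0.900 for YFP-positive and 1.06 for hematopoietic libraries, against 0.605 for YFP-negative and 0.327 for endoderm libraries. Every gene called both in the main fit and in one of these fits had the same direction in both. The 13 genes of the 2-type fit were Cdh5, Myo10, Ripor2, Robo1, Dll1, Lefty2, Otx2, Pcdh19, Reln, Stra6, Scube2, Ptprb and Wnk4. The 12 genes of the voom fit were Cdh5, Myo10, Ripor2, Robo1, Scube2, Mast4, Meis1, Tjp1, Zfhx3, Zfp711, Sox7 and Nrp2. The voom fit tested all 253 called genes and the 2-type fit 242 of them, with 4 residual degrees of freedom in place of 8 and 10773 genes in place of 14170. A called gene that is in neither list was called in neither of these fits. In brackets after a list, pairs of counts give genes higher in YFP-positive and genes higher in hematopoietic mesoderm.

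Cdh5, Myo10, Ripor2 and Robo1 were the only genes called in the main fit and in all 14 alternative fits. Cdh5 encodes VE-cadherin, the adhesion protein of endothelial junctions, and lies at chr8:104101625-104144511 (GRCm38). It was at 101, 159.9 and 146 CPM in the hematopoietic libraries and at 0, 0.911 and 0.185 CPM in the YFP-positive libraries, a log2 fold change of -8.43 ± 1.33 (SE, n = 3 and 3, edgeR adjusted p = 0.00962). The lowest hematopoietic library thus stood far above every YFP-positive library. Ripor2 (chr13:24582189-24733816), an inhibitor of the small GTPase RhoA, was at 108, 39.5 and 114 CPM in hematopoietic mesoderm and had 2 counts in all in the YFP-positive libraries (edgeR adjusted p = 0.00432), a ratio of pooled counts of 650.3-fold (95% counting interval 179.6 to 5376). Myo10, a myosin of filopodia tips, was well expressed in both types, at 396, 294 and 352 CPM in YFP-positive and 887, 946 and 751 CPM in hematopoietic mesoderm (log2 fold change -1.31 ± 0.15, edgeR adjusted p = 0.00171). Robo1 (chr16:72308306-73046095), a receptor for the guidance protein Slit, went the other way, with 662, 504 and 605 CPM against 164, 192 and 145 CPM (log2 fold change 1.82 ± 0.17, edgeR adjusted p = 5.00e-04). For Myo10 and Robo1 the gap between the types was larger than the range within either of them.

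**Figure D1:**
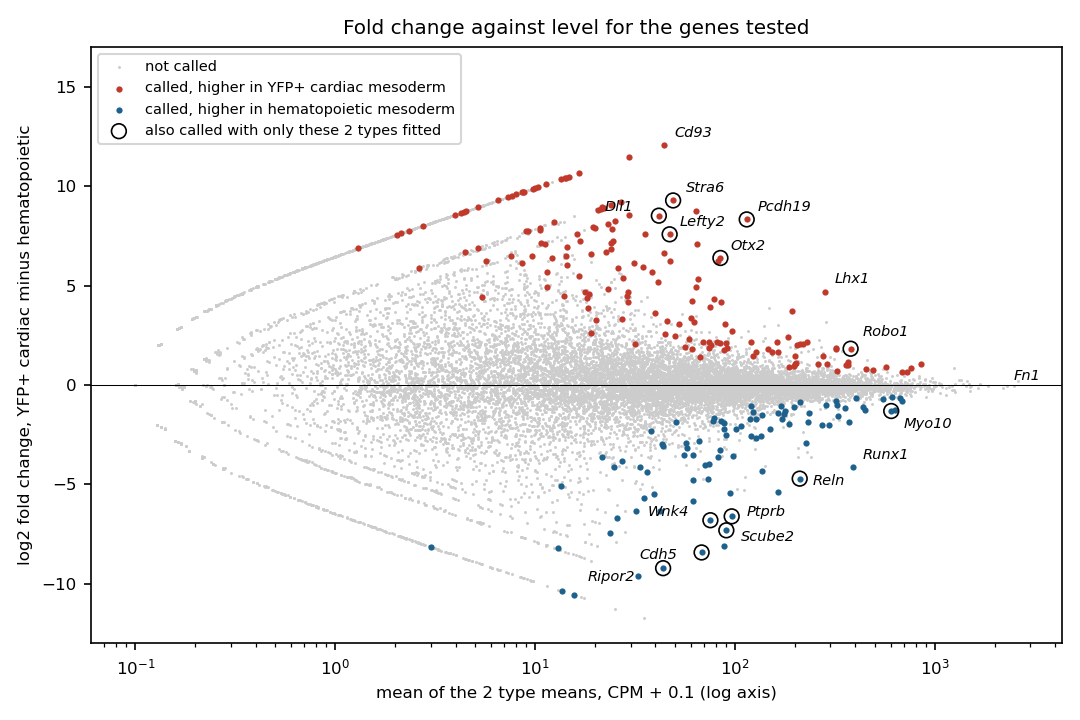
Log2 fold change between YFP-positive cardiac and hematopoietic mesoderm (vertical axis) against the mean of the type means in CPM plus 0.1 (horizontal log axis) for 14170 genes. Red points mark the 163 genes called higher in YFP-positive cardiac mesoderm, blue points the 90 called higher in hematopoietic mesoderm, and rings the 13 that were also called with only these types fitted. Cdh5 and Ripor2 lie far below zero and Stra6 and Pcdh19 far above it, while Fn1, at the highest levels labelled, lies near zero.

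Kdr, which the hematopoietic label names, was high in both types, at 522, 622 and 475 CPM in YFP-positive cardiac mesoderm and 665, 700 and 965 CPM in hematopoietic mesoderm. Every hematopoietic library was above every YFP-positive library, but the difference did not pass the test (log2 fold change -0.52 ± 0.30, edgeR adjusted p = 0.365). Pdgfra separated the types, with 344, 372 and 362 CPM in YFP-positive and 1.93, 31.5 and 48.3 CPM in hematopoietic mesoderm (log2 fold change 3.71 ± 0.73, edgeR adjusted p = 0.0260). The labels do not state whether PDGFRA was a gate of the sort, so a difference made by the sort itself cannot be told apart. Leaving out either of 2 libraries ended the Pdgfra call (edgeR adjusted p 0.0538 without YFP-positive library 2 and 0.0571 without YFP-positive library 3). Foxa2, whose history YFP records, was close to absent from both types, with 0.416, 0 and 5.92 CPM in the YFP-positive libraries and 1 count in each hematopoietic library (edgeR adjusted p = 0.270). Only YFP-positive library 3 held more than 3 counts of Foxa2. Epcam, a surface protein of epithelial cells, was low and uneven in both, at 11.2, 16.9 and 39.4 CPM and 21.4, 1.04 and 68.9 CPM (edgeR adjusted p = 0.851). The YFP transcript itself was not analysed here.

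Blood and hemangioblast factors were mostly higher in hematopoietic mesoderm. Of 26 tested, 7 were called higher there (Runx1, Lmo2, Fli1, Ets1, Lyl1, Myb and Sox7) and 1 was called higher in YFP-positive cardiac mesoderm (Meis1). In all, 25 had a negative log2 fold change, and the median was -3.39, or -3.14 with genes at 3 counts or fewer in 1 type set to the bound that this floor gives. Over all genes tested these medians were 0.03 and 0.01. In 16 factors the hematopoietic libraries all lay above the YFP-positive ones, where 5.86% of all genes did. The count of 7 changed with the libraries and the fit used. It was 0 with only these 2 types or with only the 3 mesoderm types, 1 with voom or without YFP-positive library 3, 2 without YFP-positive library 1, 4 without hematopoietic library 1 or without hematopoietic library 2 and 14 by DESeq2, 9 without hematopoietic library 3 and 8 without YFP-positive library 2.

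Runx1, a transcription factor needed for definitive blood, was the most abundant of these factors, at 739, 949 and 512 CPM in hematopoietic and 4.79, 96.4 and 22.9 CPM in YFP-positive mesoderm (log2 fold change -4.14 ± 0.78, edgeR adjusted p = 0.0218). YFP-positive library 2 was the highest of its type and still lay far below the lowest hematopoietic library. Sox7, a SoxF factor of early endothelium, was at 226, 337 and 395 CPM against 0.833, 21.0 and 0.740 CPM (log2 fold change -5.40 ± 1.08, edgeR adjusted p = 0.0302). Lmo2, the bridging partner of TAL1 and GATA factors, was at 199, 241 and 113 CPM against 0.208, 11.5 and 0.740 CPM (log2 fold change -5.46 ± 1.16, edgeR adjusted p = 0.0392). In each of these 3 genes YFP-positive library 2 carried more reads than libraries 1 and 3. Myb, a factor of blood progenitors, was at 102, 81.9 and 5.88 CPM in the hematopoietic libraries, with library 3 far below the other two, and at 0.833, 0.911 and 0.555 CPM in the YFP-positive libraries (log2 fold change -6.33 ± 1.08, edgeR adjusted p = 0.0142). Lyl1, a relative of TAL1, was at 12.8, 25.3 and 39.1 CPM in hematopoietic mesoderm and had 1 count in all in YFP-positive mesoderm, a ratio of 411-fold (95% counting interval 73.4 to 16290) (edgeR adjusted p = 0.0358). Each of these 5 calls was lost in a fit with 1 library fewer, although the log2 fold change of Runx1 was still -3.85 and that of Myb -6.14 without YFP-positive library 3. The edgeR adjusted p of Runx1 was 0.0776 without YFP-positive library 3, that of Myb was 0.0542 without YFP-positive library 3, that of Sox7 was 0.0542 without YFP-positive library 1 and 0.0596 without YFP-positive library 3, that of Lmo2 was 0.0522 to 0.0874 without YFP-positive library 1 or 3 or without hematopoietic library 1 or 2, and that of Lyl1 was 0.0513 to 0.0874 without YFP-positive library 1, 2 or 3. With the replicate block the call of Lyl1 was lost (edgeR adjusted p = 0.0685).

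Among the ETS family members of this list, only Fli1 and Ets1 were called, and none of those tested had a positive log2 fold change. Fli1 was at 334, 362 and 83.8 CPM in hematopoietic and 25.0, 13.8 and 0.555 CPM in YFP-positive mesoderm (log2 fold change -4.31 ± 0.99, edgeR adjusted p = 0.0481), and Ets1 was at 342, 252 and 149 CPM against 21.2, 49.9 and 87.2 CPM (log2 fold change -2.23 ± 0.51, edgeR adjusted p = 0.0479). Both calls were marginal. For Fli1 the edgeR adjusted p was 0.0519 to 0.107 without YFP-positive library 1, 2 or 3 or without hematopoietic library 1 or 2, and for Ets1 it was 0.0599 to 0.116 without YFP-positive library 1 or 2 or without hematopoietic library 1 or 2, or 0.0865 with the replicate block. Etv2, the ETS factor at the head of the hemangioblast program, did not separate the types, with 32.5, 28.2 and 42.6 CPM against 6.04, 28.8 and 67.5 CPM (log2 fold change -0.01 ± 0.79, edgeR adjusted p = 1.00). Its libraries overlapped throughout.

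Several factors that define the hemangioblast had libraries that did not overlap and did not pass the test. Gata2 was nearly constant in hematopoietic mesoderm, at 382, 389 and 375 CPM, and uneven in YFP-positive mesoderm, at 4.79, 73.8 and 15.2 CPM (log2 fold change -3.61 ± 0.85, edgeR adjusted p = 0.0514). Tal1 was at 471, 356 and 270.5 CPM against 13.7, 174 and 22.0 CPM (log2 fold change -2.38 ± 0.86, edgeR adjusted p = 0.162). Hhex was at 127, 147 and 70.6 CPM against 1.04, 36.1 and 0.925 CPM (edgeR adjusted p = 0.160). YFP-positive library 2 held the highest level of its type in all 3. Gata1 and Gfi1b, factors of red cells and megakaryocytes, were at 74.2, 46.6 and 0.210 CPM and 19.5, 22.9 and 0.210 CPM in hematopoietic mesoderm, so that library 3 had a single count of each. Gata1 did not pass the test (edgeR adjusted p = 0.104), and Gfi1b was below the expression filter. Cbfb, the partner subunit of RUNX factors, had the second highest mean of the list over the 6 libraries and was higher in every hematopoietic library without passing the test, at 365, 289.7 and 432 CPM against 222, 254 and 138 CPM (edgeR adjusted p = 0.0913).

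**Figure D2:**
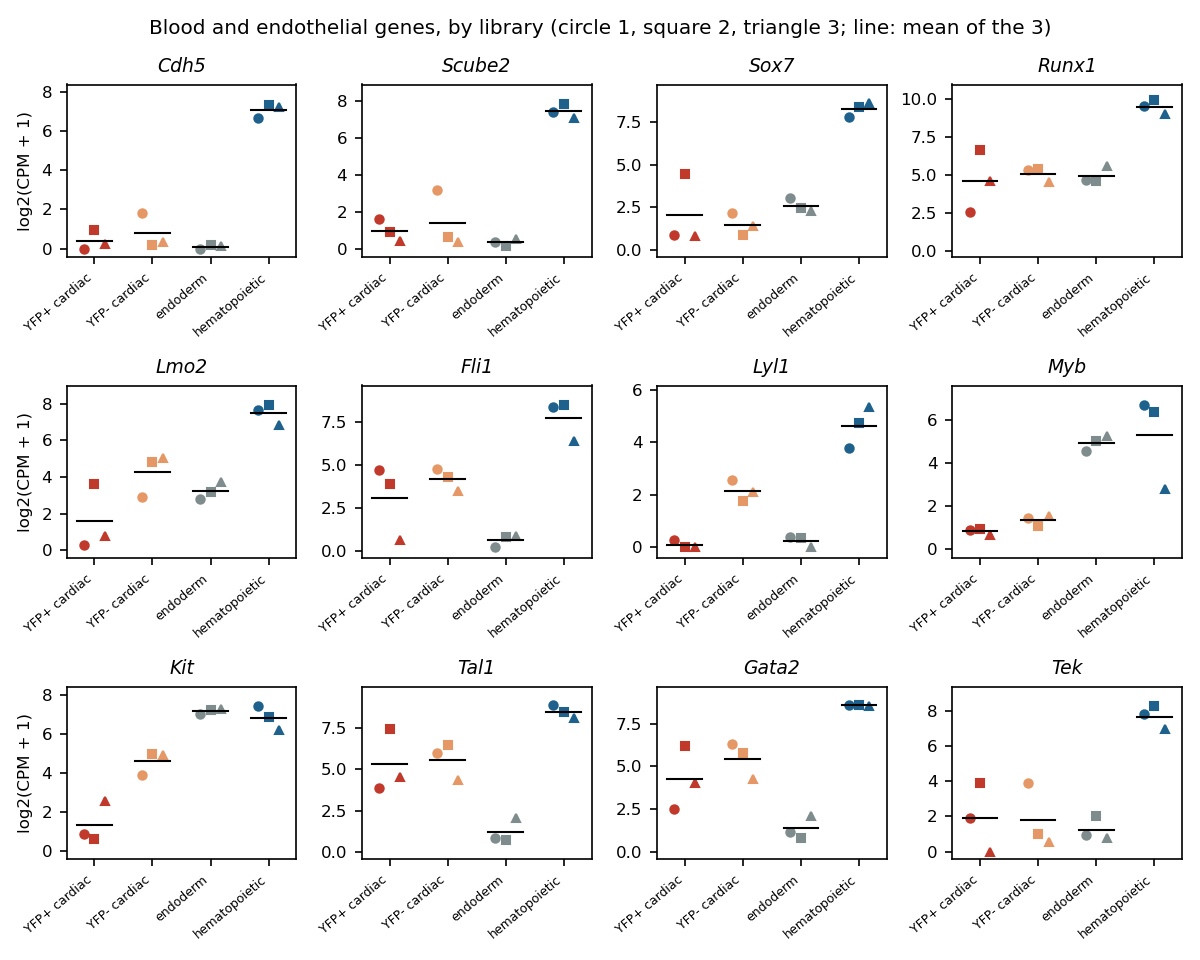
Level of 12 blood and endothelial genes in each of the 12 libraries, as log2 of CPM plus 1 (vertical axis), by cell type (horizontal axis). Circles, squares and triangles are replicates 1, 2 and 3, and the line is the mean of the 3. The hematopoietic libraries lie above all YFP-positive libraries in each panel, and YFP-positive replicate 2 (square) lies above the other 2 in Sox7, Runx1, Lmo2, Tal1, Gata2 and Tek.

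Meis1, a homeobox factor that acts with HOX proteins, was the exception on the blood list. It was at 67.8, 56.7 and 36.8 CPM in YFP-positive cardiac mesoderm and had 1 count in all in hematopoietic mesoderm, a ratio of 782-fold (95% counting interval 140 to 30930) (edgeR adjusted p = 0.00222). It was also called among the 3 mesoderm types and in the voom fit, and in every fit that left out a library.

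The promoters of Runx1, Lyl1 and Meis1 are shown because these factors of 1 list differed in opposite directions. Each sequence is the 250 bases before the transcription start in RefSeq (GRCm38.p6), read 5′ to 3′ on the gene's strand, at chr16:92826075-92826324 (minus strand), chr8:84701207-84701456 (plus strand) and chr11:19018970-19019219 (minus strand). For Runx1, RefSeq gives a further start, whose window (chr16:92697330-92697579, minus strand) held none of the motifs searched and did not match a GENCODE transcript start. Capitals mark the motif found, which is an E-box (CACCTG or its reverse complement CAGGTG) in Runx1 and Lyl1 and an ETS motif (CCGGAAGT, here as its reverse complement ACTTCCGG) in Meis1.
Runx1: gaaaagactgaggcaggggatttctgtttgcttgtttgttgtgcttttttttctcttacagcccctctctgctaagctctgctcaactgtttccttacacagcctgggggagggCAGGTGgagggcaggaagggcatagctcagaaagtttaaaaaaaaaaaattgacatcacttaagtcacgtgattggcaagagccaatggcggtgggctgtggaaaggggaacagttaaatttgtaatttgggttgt
Lyl1: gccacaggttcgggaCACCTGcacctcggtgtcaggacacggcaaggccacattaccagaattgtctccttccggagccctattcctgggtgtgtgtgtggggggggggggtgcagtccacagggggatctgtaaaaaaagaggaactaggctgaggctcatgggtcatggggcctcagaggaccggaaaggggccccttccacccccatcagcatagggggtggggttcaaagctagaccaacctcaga
Meis1: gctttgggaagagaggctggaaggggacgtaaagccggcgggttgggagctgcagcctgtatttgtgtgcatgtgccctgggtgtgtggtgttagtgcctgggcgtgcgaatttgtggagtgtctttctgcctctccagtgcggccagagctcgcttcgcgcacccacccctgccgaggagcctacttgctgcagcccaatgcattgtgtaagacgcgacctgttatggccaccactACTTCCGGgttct
A RefSeq promoter of 300 bases was matched for 10178 of the 14170 genes tested, 124 of the 163 called higher in YFP-positive mesoderm and 64 of the 90 called higher in hematopoietic mesoderm. A gene was counted where at least 1 of its promoters held the motif, so genes with several starts had more sequence searched. On either strand, CCGGAAGT occurred in 9.04% of all tested genes with a promoter. It occurred in 2.42% of those called higher in YFP-positive mesoderm and in 7.81% of those called higher in hematopoietic mesoderm. The E-box CACCTG occurred in 21.2%, 22.6% and 15.6%, and the E-box CAGATG in 13.4%, 19.4% and 17.2%. The GATA motif AGATAA occurred in 7.41% of all, in 7.26% of those higher in YFP-positive mesoderm and in 0 of the 64 higher in hematopoietic mesoderm. The forkhead motif TGTTTAC occurred in 3.17%, 3.23% and 1.56%, and the SOX motif AACAAT in 7.34%, 8.87% and 6.25%. These are counts of letters in a short window, and they were not tested.

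Most endothelial genes followed the same direction, with 20 of 24 tested below 0 on the log2 scale. Of the 24, 4 were called higher in hematopoietic mesoderm (Cdh5, Scube2, Egfl7 and Nrp2) and 1 was called higher in YFP-positive mesoderm (Cd93). The median log2 fold change was -2.81, or -2.53 with genes at the floor set to their bound. The count of 4 was 1 without YFP-positive library 3, 2 with the replicate block, with only these 2 types or with only the 3 mesoderm types, 7 without an expression filter and 9 by DESeq2. Scube2, a secreted protein that assists VEGF receptor signalling and hedgehog release, was at 173, 229.8 and 136 CPM in hematopoietic and 2.08, 0.911 and 0.370 CPM in YFP-positive mesoderm (log2 fold change -7.31 ± 1.24, edgeR adjusted p = 0.0137). Egfl7, an endothelial secreted factor, was at 251, 96.8 and 51.9 CPM against 3.75, 14.6 and 6.48 CPM (log2 fold change -4.01 ± 0.79, edgeR adjusted p = 0.0278). Nrp2, a co-receptor for VEGF-C and semaphorins, was well expressed in both types, at 532, 546 and 660.3 CPM against 125, 283 and 71.2 CPM (log2 fold change -1.86 ± 0.40, edgeR adjusted p = 0.0392). The edgeR adjusted p of Scube2 was 0.0506 without YFP-positive library 2 and 0.0510 without YFP-positive library 3. That of Egfl7 was 0.0717 to 0.102 without YFP-positive library 1 or 3 or without hematopoietic library 1, and 0.0548 with the replicate block. That of Nrp2 was 0.0505 to 0.108 without YFP-positive library 1 or 3 or without hematopoietic library 1 or 3, and 0.0700 with the block.

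Cd93, a transmembrane glycoprotein of endothelial and myeloid cells, was at 156, 78.0 and 29.1 CPM in YFP-positive mesoderm and had no count in any hematopoietic library, at least 140.3-fold higher against a floor of 3 counts per library (edgeR adjusted p = 0.00881). It was called in every fit that left out a library and among the 3 mesoderm types. Tek, the angiopoietin receptor, was at 221, 302 and 122 CPM in hematopoietic and 2.71, 13.7 and 0 CPM in YFP-positive mesoderm without passing the test (log2 fold change -5.29 ± 1.48, edgeR adjusted p = 0.0912). Flt1, a VEGF receptor, was at 724, 510 and 189 CPM against 77.4, 209.6 and 143 CPM, and its libraries overlapped (edgeR adjusted p = 0.0646). Aplnr, the apelin receptor, reached 789.5, 563 and 156 CPM against 421, 239 and 325 CPM, with hematopoietic library 3 below every YFP-positive library (edgeR adjusted p = 0.475). Pecam1, a junction protein of mature endothelium, had overlapping libraries, at 21.4, 28.8 and 0.210 CPM against 0, 58.9 and 4.26 CPM (edgeR adjusted p = 0.962). Outside the list, Ptprb, the endothelial phosphatase that acts on VE-cadherin and TEK, was at 239.7, 295 and 36.1 CPM in hematopoietic and under 3 CPM in each library of YFP-positive mesoderm (log2 fold change -6.61 ± 1.21, edgeR adjusted p = 0.0177). Its edgeR adjusted p was 0.0541 to 0.0698 without YFP-positive library 1, 2 or 3. Ptprb was singled out after its values were seen.

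Genes of red cells were not called in either direction among the 9 of 22 that were tested (unadjusted p under 0.05 for 1 and 2, DESeq2 1 and 0), and their median log2 fold change was 0.06. In 3 of the 9 the hematopoietic libraries all lay above the YFP-positive ones, where 5.86% of all genes did, and in 0 they all lay below. The embryonic and adult globins Hba-x, Hbb-y, Hba-a1, Hba-a2, Hbb-bt and Hbb-bs, the anion exchanger Slc4a1 and Hemgn had no count in any of the 6 libraries. The embryonic globin Hbb-bh1 had 11.3, 7.27 and 0 CPM in hematopoietic mesoderm and 1 count in all in YFP-positive mesoderm. The most abundant genes of the list, the transferrin receptor Tfrc and the carbonic anhydrase Car2, were at 190.1, 312 and 313 CPM and 237, 201 and 139 CPM in hematopoietic mesoderm and at 231, 361 and 380.5 CPM and 173, 226 and 203 CPM in YFP-positive mesoderm. Kit, the stem cell factor receptor found on blood progenitors and germ cells, separated the types clearly. It was at 173, 117 and 71.6 CPM against 0.833, 0.547 and 4.81 CPM (log2 fold change -5.84 ± 0.77, edgeR adjusted p = 0.00410), and it was called in every fit that left out a library and among the 3 mesoderm types.

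**Figure D3:**
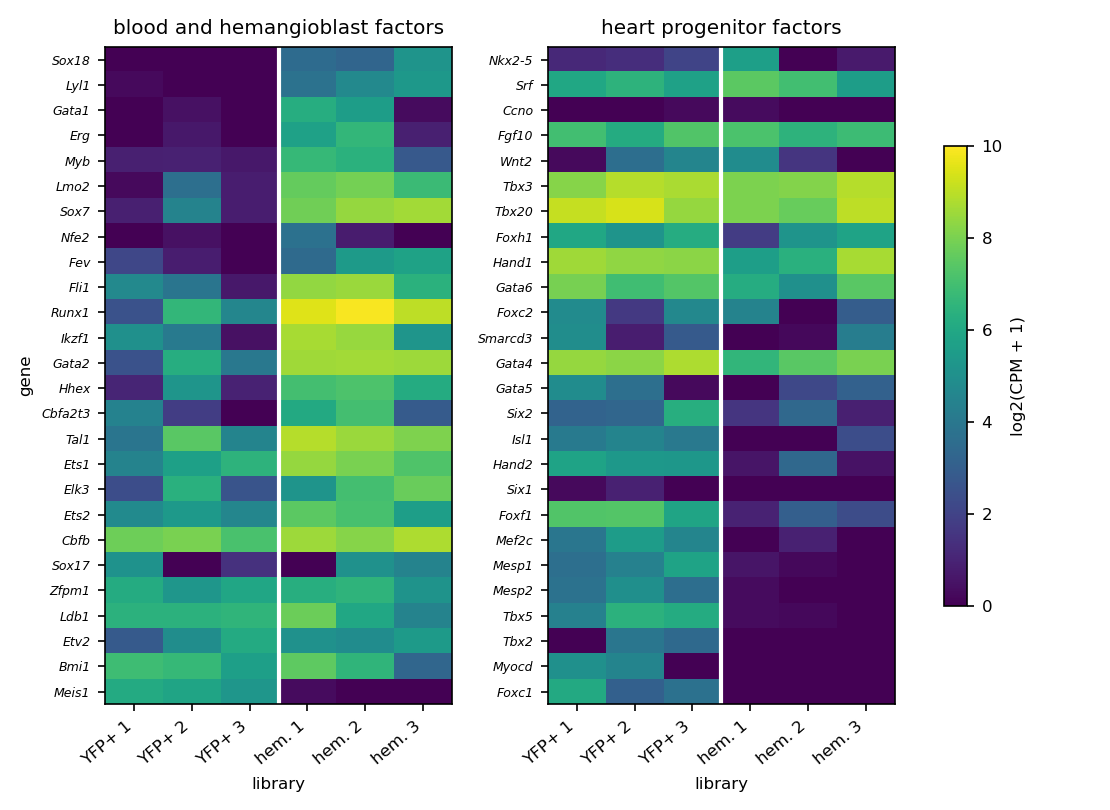
Level of the 26 tested blood and hemangioblast factors (left) and the 26 tested heart progenitor factors (right) in the 6 libraries, as log2 of CPM plus 1 (colour). Rows are genes in order of log2 fold change, columns are libraries, and the white line separates the types. Most blood factors are brighter in the hematopoietic libraries, whereas 9 heart factors have libraries that do not overlap, among them Gata4 in the middle of the panel and Hand2, Foxf1, Mesp1, Tbx5 and Foxc1 further down.

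Heart progenitor factors separated the types less evenly. Of 26 tested, 4 were called higher in YFP-positive cardiac mesoderm (Mesp1, Tbx5, Foxc1 and Foxf1) and none was called higher in hematopoietic mesoderm (unadjusted p under 0.05 for 13 and 0, DESeq2 11 and 0). The median log2 fold change was 1.44, or 1.03 with genes at the floor set to their bound, and 9 factors did not overlap, all higher in YFP-positive mesoderm (8.12% of all genes tested were so). The count of 4 was 0 with only these 2 types or with voom, 1 with only the 3 mesoderm types, 2 with the replicate block, without YFP-positive library 2, without YFP-positive library 3 or without hematopoietic library 1, 7 without hematopoietic library 3 and 11 by DESeq2. Foxf1, a forkhead factor of lateral and extraembryonic mesoderm, was at 155, 161 and 56.3 CPM in YFP-positive and 0.964, 7.10 and 3.99 CPM in hematopoietic mesoderm (log2 fold change 4.92 ± 0.85, edgeR adjusted p = 0.0144), and it was also called among the 3 mesoderm types. Foxc1, a forkhead factor of paraxial and cardiac mesoderm, was at 65.8, 7.29 and 12.2 CPM in YFP-positive mesoderm and had no count in hematopoietic mesoderm, at least 45.5-fold higher (edgeR adjusted p = 0.0159). Both were called in every fit that left out a library.

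Mesp1, the factor of the earliest heart precursors, was at 11.4, 19.9 and 54.0 CPM in YFP-positive mesoderm and had 3 counts in all in hematopoietic mesoderm, a ratio of 142-fold (95% counting interval 48.4 to 692) (edgeR adjusted p = 0.0356). Tbx5, a T-box factor of the left ventricle and atria, was at 20.2, 85.5 and 71.1 CPM and had 2 counts in all, a ratio of 444-fold (95% counting interval 123 to 3675) (edgeR adjusted p = 0.0479). Although the levels of both were far apart between the types, neither call was stable. The edgeR adjusted p of Mesp1 was 0.0511 to 0.0776 without YFP-positive library 2 or 3 or without hematopoietic library 1 or 2, and 0.0754 with the replicate block. That of Tbx5 was 0.0554 to 0.101 without YFP-positive library 1, 2 or 3 or without hematopoietic library 1, 2 or 3, and 0.0921 with the block.

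Other heart factors had separate levels without a call. Mef2c, a muscle transcription factor, was at 14.4, 45.0 and 22.6 CPM against 0, 0.866 and 0 CPM (log2 fold change 6.38 ± 1.53, edgeR adjusted p = 0.0541). Hand2 was at 54.5, 39.7 and 38.1 CPM against 0.482, 9.35 and 0.420 CPM (edgeR adjusted p = 0.144). Isl1, which marks second heart field progenitors, was at 15.8, 22.1 and 15.6 CPM against 0, 0 and 4.20 CPM (edgeR adjusted p = 0.217). The most abundant factors were present in both types, and none of them was called. Tbx20 was at 558, 664 and 344 CPM against 263, 206 and 518 CPM and Tbx3 at 292, 471 and 425 CPM against 257, 280.1 and 477 CPM, with overlapping libraries (edgeR adjusted p = 0.249 and 0.706). Gata4 was at 338, 303 and 433 CPM against 95.6, 174 and 255 CPM, without overlap (log2 fold change 1.03 ± 0.30, edgeR adjusted p = 0.104). Hand1 was at 384, 319 and 303 CPM against 47.5, 81.4 and 417 CPM. Hematopoietic library 3 alone exceeded the YFP-positive libraries in Hand1 (edgeR adjusted p = 0.559). Nkx2-5 was low, at 1.25, 1.46 and 3.15 CPM against 49.4, 0 and 0.630 CPM, and its highest level was in hematopoietic library 1 (edgeR adjusted p = 0.424).

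Sarcomere genes were not called in either direction among the 10 of 18 tested (unadjusted p under 0.05 for 3 and 2, DESeq2 2 and 1). Myl4, Myl3, Tnnc1, Acta2, Actn2, Myh6 and Myh7 had no count in any of the 6 libraries. Myl7, the atrial myosin light chain that appears early in heart cells, was at 144, 37.4 and 112 CPM in YFP-positive and 25.5, 18.2 and 1.26 CPM in hematopoietic mesoderm, without overlap (log2 fold change 2.71 ± 0.86, edgeR adjusted p = 0.124). Tpm1, a tropomyosin of many cell types, was at 514, 405 and 221 CPM against 381, 369 and 511 CPM (edgeR adjusted p = 0.816).

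**Figure D4:**
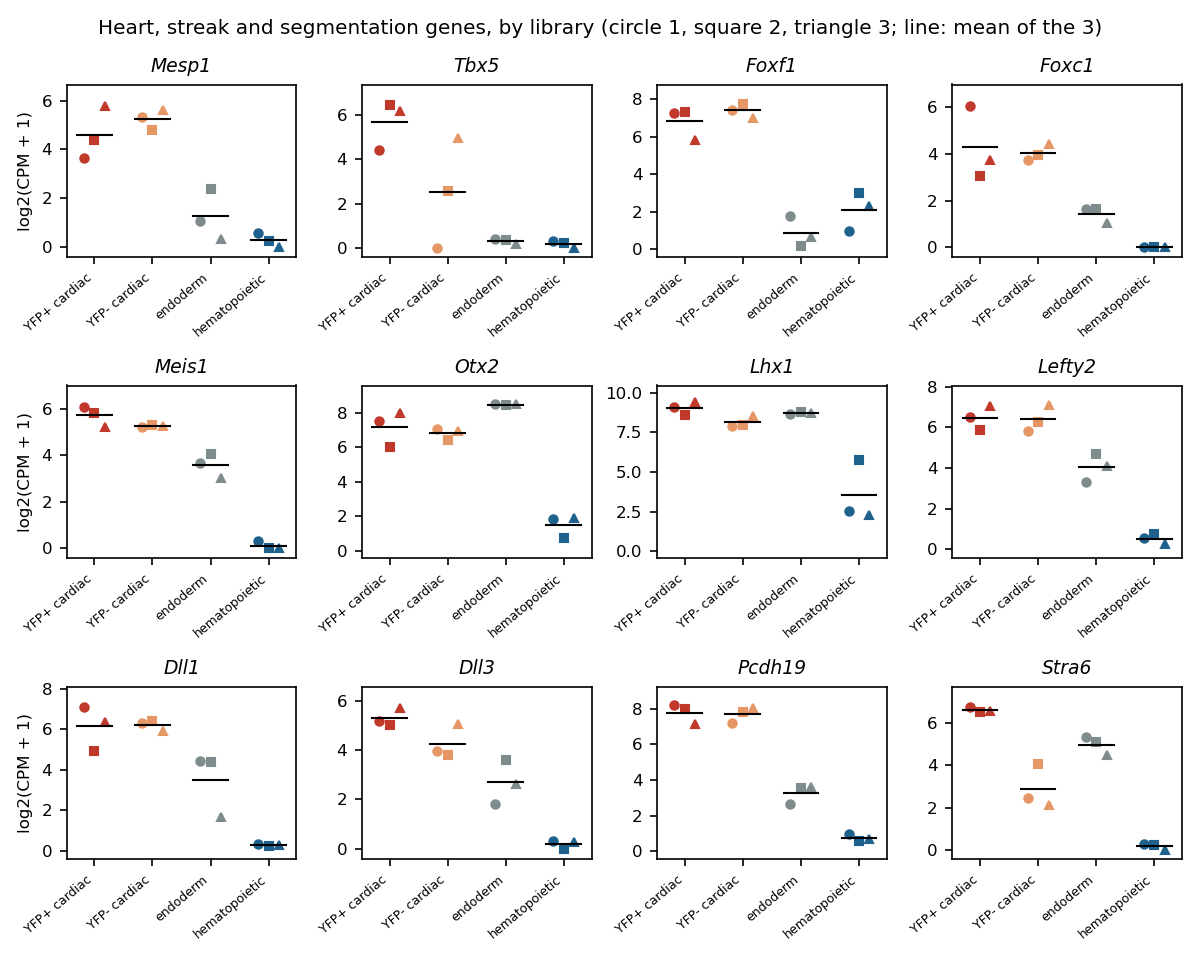
Level of 12 heart, streak and segmentation genes in each of the 12 libraries, as log2 of CPM plus 1 (vertical axis), by cell type (horizontal axis). Circles, squares and triangles are replicates 1, 2 and 3, and the line is the mean of the 3. All hematopoietic libraries lie below all YFP-positive libraries in each panel, and near 0 for Foxc1, Meis1, Dll1, Dll3, Mesp1, Tbx5 and Stra6.

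Of 30 genes tested for the primitive streak and the mesoderm just leaving it, 4 were called higher in YFP-positive mesoderm (Lefty2, Lhx1, Frzb and Mesp1) and none higher in hematopoietic mesoderm (unadjusted p under 0.05 for 10 and 4, DESeq2 8 and 2), with a median log2 fold change of 1.09, or 0.99 with genes at the floor set to their bound. The count of 4 was 0 with voom, 1 with only these 2 types or with only the 3 mesoderm types, 7 without an expression filter, 8 by DESeq2 and 10 without hematopoietic library 3. Lefty2 (chr1:180893108-180899103), a secreted antagonist of Nodal, was at 89.5, 57.2 and 134 CPM against 0.482, 0.693 and 0.210 CPM (log2 fold change 7.58 ± 0.78, edgeR adjusted p = 8.83e-04). Lhx1, a homeobox factor of anterior mesendoderm, was at 546, 386 and 689 CPM against 4.82, 53.0 and 3.78 CPM (log2 fold change 4.70 ± 0.78, edgeR adjusted p = 0.0120). Frzb, a secreted Wnt antagonist, was at 51.2, 12.9 and 89.0 CPM against 0.241, 1.73 and 0.420 CPM (log2 fold change 5.91 ± 0.95, edgeR adjusted p = 0.0111). All 3 were called in every fit that left out a library, and Lefty2 also in the 2-type fit.

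T (brachyury), the marker of the streak itself, went the other way without passing the test, at 261, 213 and 374 CPM in hematopoietic and 73.7, 18.4 and 104 CPM in YFP-positive mesoderm (log2 fold change -2.11 ± 0.50, edgeR adjusted p = 0.0514). Its libraries did not overlap. Eomes, a T-box factor of early mesoderm and endoderm, was at 489, 340.1 and 453 CPM in YFP-positive and 49.4, 28.2 and 264 CPM in hematopoietic mesoderm. Mixl1, a streak homeobox factor, was at 168, 146 and 352 CPM in YFP-positive and 50.8, 27.9 and 363 CPM in hematopoietic mesoderm (edgeR adjusted p = 0.114 for Eomes and 0.705 for Mixl1). Hematopoietic library 3 was several-fold above libraries 1 and 2 in both. Zeb2, a repressor of epithelial genes, was the most abundant gene of the list. It was at 1460, 1010 and 787 CPM in hematopoietic and 625, 666 and 874 CPM in YFP-positive mesoderm (edgeR adjusted p = 0.163). The Nodal transcript was seen in YFP-positive library 3 alone among the 6, at 9.44 CPM.

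Among the 20 lists, genes of paraxial mesoderm and segmentation held the largest share of called genes. Of 18 tested, 7 were called higher in YFP-positive cardiac mesoderm (Dll1, Dll3, Pcdh8, Pcdh19, Foxc1, Epha4 and Dact1) and none higher in hematopoietic mesoderm (unadjusted p under 0.05 for 8 and 2, DESeq2 7 and 0). The median log2 fold change was 2.00, or 2.16 with genes at the floor set to their bound. The count of 7 was 0 with voom, 2 with only these 2 types and 4 with only the 3 mesoderm types. Pcdh19 (chrX:133582860-133688987), a protocadherin that mediates adhesion between like cells, had the smallest adjusted p of these. It was at 291, 250.1 and 142 CPM in YFP-positive and 0.964, 0.520 and 0.630 CPM in hematopoietic mesoderm (log2 fold change 8.33 ± 0.55, edgeR adjusted p = 1.71e-05). Dact1, a Dishevelled-binding protein, was at 28.3, 66.0 and 168 CPM against 0.241, 1.56 and 0.630 CPM (log2 fold change 6.65 ± 0.76, edgeR adjusted p = 0.00170). Epha4, an ephrin receptor of somite borders, was at 166, 332 and 292 CPM against 24.1, 88.2 and 64.3 CPM (log2 fold change 2.16 ± 0.42, edgeR adjusted p = 0.0246), but its edgeR adjusted p was 0.0649 without YFP-positive library 2 and 0.0661 without YFP-positive library 3. Pcdh8 was low, at 1.87, 4.74 and 5.55 CPM, and had no count in hematopoietic mesoderm, at least 6.50-fold higher (edgeR adjusted p = 0.0413). Its edgeR adjusted p was 0.0525 to 0.0785 without YFP-positive library 2 or 3 or without hematopoietic library 1 or 2, and 0.0891 with the block. The presomitic factor Tbx6 was scarce, at 4.58, 0.182 and 9.62 CPM against 0, 0 and 3.99 CPM (edgeR adjusted p = 0.631), and Ripply1, Meox1 and Tbx18 had no count in the 6 libraries.

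In the Notch pathway the called genes were ligands. Of 35 genes tested, 2 were called, both higher in YFP-positive mesoderm (unadjusted p under 0.05 for 6 and 4, DESeq2 2 and 1), and the median log2 fold change was 0.08. The count was 0 with voom and 1 with only these 2 types. Dll1 (chr17:15367354-15376872), a Notch ligand of mesoderm, was at 137, 29.3 and 81.6 CPM in YFP-positive mesoderm and had 1 count in each hematopoietic library, a ratio of 394-fold (95% counting interval 134 to 1911) (edgeR adjusted p = 0.00384). Dll3, a ligand-like protein of the presomitic mesoderm that dampens Notch signalling, was at 35.6, 31.2 and 51.3 CPM and had 2 counts in all, a ratio of 289.6-fold (95% counting interval 79.8 to 2397) (edgeR adjusted p = 0.0101). Both were called in every fit that left out a library and among the 3 mesoderm types, and Dll1 also in the 2-type fit. The receptors were present in both types. Notch2 was at 422, 267 and 201 CPM against 514, 524 and 698 CPM, without overlap (log2 fold change -0.96 ± 0.23, edgeR adjusted p = 0.0535), and Notch1 at 106, 111 and 128 CPM against 119.5, 67.5 and 206 CPM (edgeR adjusted p = 0.860). Mib1, the ubiquitin ligase that activates Notch ligands, was at 299, 430.1 and 426 CPM against 511, 507 and 518 CPM (edgeR adjusted p = 0.179). The target genes Hes1 and Hey1 did not overlap and were not called, with Hes1 at 95.1, 58.7 and 75.9 CPM against 55.4, 32.4 and 17.4 CPM and Hey1 at 46.8, 46.3 and 20.0 CPM against 3.85, 15.9 and 0 CPM (edgeR adjusted p = 0.199 and 0.262). Dll4, the endothelial ligand, had no count in the 6 libraries.

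**Figure D5:**
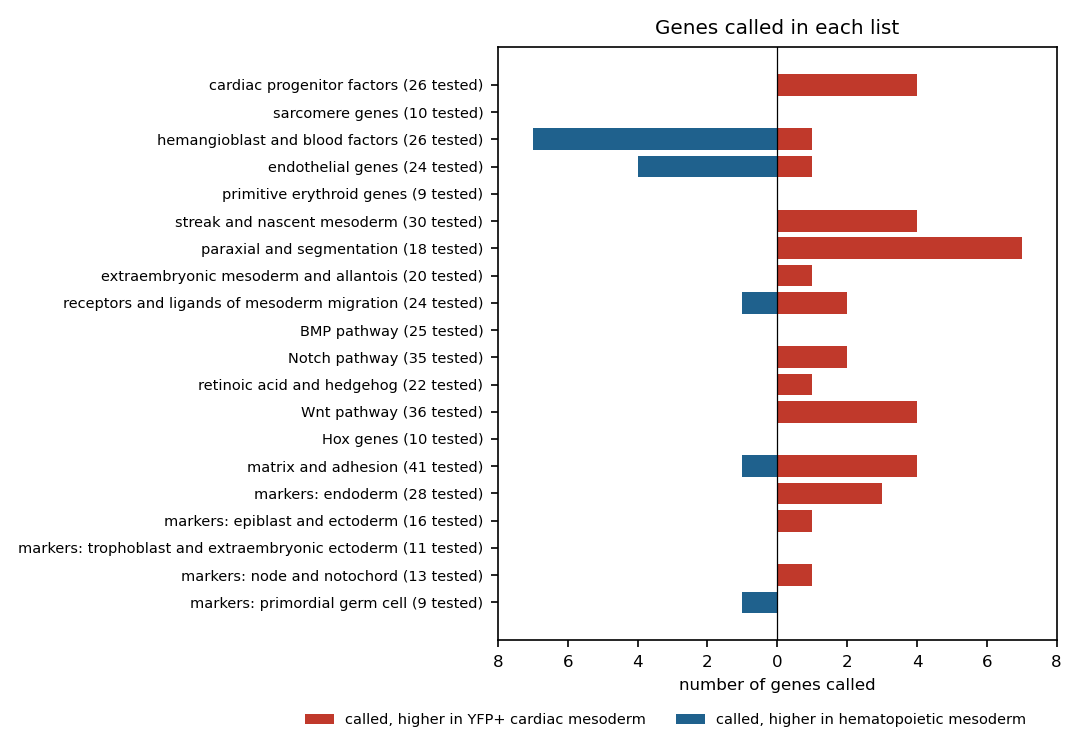
Number of genes called in each of the 20 gene lists (horizontal axis), to the right for genes higher in YFP-positive cardiac mesoderm and to the left for genes higher in hematopoietic mesoderm, with the number tested beside each list name. Blood factors (7) and endothelial genes (4) reach furthest to the left, and paraxial and segmentation genes (7) furthest to the right.

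Among other signalling genes, single receptors stood out. Stra6 (chr9:58063788-58153996), the receptor through which cells take up retinol, was even in YFP-positive mesoderm, at 107, 90.8 and 95.5 CPM, and had 2 counts in all in hematopoietic mesoderm, a ratio of 714-fold (95% counting interval 197 to 5905) (edgeR adjusted p = 0.00170). It was the only gene called of 22 tested for retinoic acid and hedgehog signalling (unadjusted p under 0.05 for 8 and 2, DESeq2 5 and 1). The count of 1 was 0 with voom, 2 without YFP-positive library 3, without hematopoietic library 1 or without hematopoietic library 2, 3 without hematopoietic library 3 and 5 by DESeq2. Stra6 was called in the 2-type fit and in every fit that left out a library. The most abundant genes of that list were Ptch1, the hedgehog receptor, at 543, 552 and 416 CPM against 284, 125 and 419 CPM, and Gli3, at 313, 304 and 120.5 CPM against 145, 129.9 and 153 CPM (edgeR adjusted p = 0.163 and 0.178). Of 24 receptors and ligands of mesoderm migration, Pdgfra and Fgfr1 were called higher in YFP-positive mesoderm and Kit higher in hematopoietic mesoderm. The count of 2 was 0 with only these 2 types or with voom, 1 with only the 3 mesoderm types, without YFP-positive library 2 or without YFP-positive library 3 and 4 without hematopoietic library 3, and that of 1 was 0 with only these 2 types or with voom, 2 without hematopoietic library 3 and 3 by DESeq2. Fgfr1, the FGF receptor that mesoderm needs to leave the streak, was at 379, 249 and 252 CPM against 125, 113 and 84.0 CPM (log2 fold change 1.45 ± 0.24, edgeR adjusted p = 0.0113) and was also called among the 3 mesoderm types.

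Of 36 Wnt pathway genes tested, 4 were called higher in YFP-positive mesoderm (Fzd7, Tcf7l2, Frzb and Ror1) and none higher in hematopoietic mesoderm (unadjusted p under 0.05 for 10 and 3, DESeq2 8 and 1). The count of 4 was 0 with only these 2 types, with only the 3 mesoderm types or with voom and 8 without an expression filter or by DESeq2. Fzd7, a Wnt receptor, was at 446, 352 and 407 CPM against 89.1, 165 and 190.3 CPM (log2 fold change 1.44 ± 0.24, edgeR adjusted p = 0.0114). Tcf7l2, a nuclear effector of the pathway, was at 333, 349.7 and 374 CPM against 131, 87.8 and 30.9 CPM (log2 fold change 2.08 ± 0.36, edgeR adjusted p = 0.0144). Ror1, a receptor for Wnt5a, was uneven, at 42.0, 10.6 and 1.67 CPM, and had 1 count in all in hematopoietic mesoderm, a ratio of 252-fold (95% counting interval 44.8 to 9979) (edgeR adjusted p = 0.0223). Its edgeR adjusted p was 0.0626 without hematopoietic library 1, and 0.0537 with the block. The co-receptor Lrp6 was at 301, 582 and 359.9 CPM against 254, 391 and 346 CPM (edgeR adjusted p = 0.485). None of 25 BMP pathway genes was called (unadjusted p under 0.05 for 3 and 1, DESeq2 3 and 1). Without hematopoietic library 3, 1 was called in each direction, and without hematopoietic library 1, 1 was called higher in YFP-positive mesoderm. The receptors Bmpr1a and Bmpr2 were at 602, 588 and 521 and 187, 147 and 180.1 CPM in YFP-positive and at 453, 323 and 378 and 446, 184 and 156 CPM in hematopoietic mesoderm (edgeR adjusted p = 0.0705 and 0.341).

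Of 41 matrix and adhesion genes tested, 4 were called higher in YFP-positive mesoderm (Itga8, Pcdh7, Pcdh8 and Pcdh19) and Cdh5 higher in hematopoietic mesoderm. The count of 4 was 0 with voom, 1 with only these 2 types, with only the 3 mesoderm types or without YFP-positive library 3, 2 with the replicate block, without YFP-positive library 2 or without hematopoietic library 1, 7 by DESeq2 and 8 without hematopoietic library 3, and that of 1 was 2 without an expression filter, without YFP-positive library 1 or without YFP-positive library 2, 5 without hematopoietic library 3 and 7 by DESeq2. Pcdh7, a protocadherin, was at 498, 405 and 588 CPM against 192, 63.0 and 166 CPM (log2 fold change 1.82 ± 0.33, edgeR adjusted p = 0.0159, and 0.0538 without YFP-positive library 3). Itga8, an integrin subunit, was at 67.8, 27.3 and 17.4 CPM against 0, 1.04 and 0 CPM (log2 fold change 6.58 ± 1.39, edgeR adjusted p = 0.0384). The edgeR adjusted p of Itga8 was 0.0506 to 0.0769 without YFP-positive library 1, 2 or 3 or without hematopoietic library 1, and 0.0547 with the block. The most abundant matrix genes did not pass the test, with fibronectin (Fn1) at 2041, 2049 and 2143 CPM against 2473, 2119 and 2389 CPM and versican (Vcan) at 795, 937 and 1074 CPM against 1375, 1577 and 1052 CPM (edgeR adjusted p = 0.373 and 0.126). None of the 10 Hox genes tested was called (unadjusted p under 0.05 for 1 and 3, DESeq2 0 and 1), and 12 of the 30 measured had no count in the 6 libraries. The list still leaned to hematopoietic mesoderm, with a median log2 fold change of -2.51, 8 genes below 0 and 2 above. In 3 of the 10 the hematopoietic libraries all lay above the YFP-positive ones, where 5.86% of all genes did, and in 0 below. The 30 genes summed to 13.5 to 78.7 CPM in YFP-positive and 92.1 to 203.6 CPM in hematopoietic libraries. The most abundant, Hoxd1 and Hoxb1, were at 24.6, 0.364 and 13.1 and 43.1, 1.28 and 26.5 CPM in YFP-positive and at 47.7, 36.0 and 81.1 and 0.241, 23.6 and 0 CPM in hematopoietic mesoderm. YFP-positive library 2 was the lowest of its type in both. Of 20 genes of extraembryonic mesoderm and allantois, Foxf1 was the only one called (unadjusted p under 0.05 for 1 and 1, DESeq2 1 and 0), with 3 called higher in YFP-positive mesoderm without hematopoietic library 3, and 1 called higher in hematopoietic mesoderm without YFP-positive library 1. Foxf1 was not called with only these 2 types or with voom. In this list, the growth factor Igf2 and the noncoding RNA H19 were abundant in both types, at 759, 733 and 405 and 491, 468 and 339 CPM in YFP-positive and 1065, 774 and 763 and 562, 515 and 571 CPM in hematopoietic mesoderm.

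Markers of other cell types were measured beside these results. The 30 endoderm markers summed to 1551 to 1793 CPM in YFP-positive and 1429 to 2306 CPM in hematopoietic mesoderm, against 6080 to 10860 CPM in the endoderm libraries. Of the 28 tested, 3 were called, all higher in YFP-positive mesoderm (unadjusted p under 0.05 for 5 and 3, DESeq2 3 and 1). The count of 3 was 0 with voom and 1 with only these 2 types or with only the 3 mesoderm types. Otx2 (chr14:48657677-48673819), a homeobox factor shared by anterior endoderm, epiblast and anterior mesoderm, was at 184, 64.0 and 252 CPM against 2.65, 0.693 and 2.73 CPM (log2 fold change 6.39 ± 0.59, edgeR adjusted p = 4.72e-04), and it was called in the 2-type fit too. Cer1, a secreted Nodal and BMP antagonist, was at 31.2, 10.4 and 67.7 CPM against 5.06, 3.29 and 3.15 CPM (log2 fold change 3.25 ± 0.57, edgeR adjusted p = 0.0148), and at 478, 387 and 357 CPM in endoderm. Apob, an apolipoprotein, was at 8.74, 59.8 and 28.9 CPM against 6.75, 4.50 and 4.83 CPM (log2 fold change 2.61 ± 0.55, edgeR adjusted p = 0.0384), and at 2524, 1034 and 1483 CPM in endoderm. The edgeR adjusted p of Apob was 0.0600 to 0.0812 without YFP-positive library 2 or 3 or without hematopoietic library 1, 2 or 3, and 0.0779 with the block. The endoderm genes Cubn and Ttr were at 6.45, 3.28 and 7.96 and 1.04, 0.182 and 1.85 CPM in YFP-positive and 4.10, 7.97 and 1.05 and 0, 0.520 and 0.420 CPM in hematopoietic mesoderm, where endoderm had 1497, 309 and 743 and 167, 72.4 and 100.3 CPM. The part of endoderm RNA in the 3 called markers was not tested.

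The 18 epiblast and ectoderm markers summed to 948 to 1360 CPM and 441 to 914 CPM. Otx2 was the only one called of 16 tested (edgeR unadjusted p under 0.05 for 7 and 0), and Sox2 had no count in the 6 libraries. The list still leaned to YFP-positive mesoderm, with 12 genes above 0 on the log2 scale and 3 below. Its median log2 fold change was 2.275, or 1.73 with genes at the floor set to their bound. In 4 genes the YFP-positive libraries all lay above the hematopoietic ones, where 8.12% of all genes did, and in 0 below. The 17 trophoblast markers summed to 676 to 881 CPM and 113 to 751 CPM, with none of 11 called (unadjusted p under 0.05 for 2 and 2, DESeq2 1 and 0). Hand1 and Eomes, which mesoderm also expresses, made up most of the sums in the YFP-positive libraries. In hematopoietic library 1, Ascl2 held 118 CPM, and in hematopoietic library 3 Esrrb held 67.8 CPM, while both were near 0 in every other library of the 6. The 14 node and notochord markers summed to 414 to 636 CPM and 426 to 623 CPM with 1 call (Cer1), and the 12 germ cell markers to 121 to 184 CPM and 136 to 259.5 CPM with 1 call (Kit), while Dppa3, Prdm14 and Nanos3 had no count in the 6 libraries. What part these cells had in the results was not tested.

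The largest changes included genes outside the lists. In YFP-positive mesoderm, Srrm4, a splicing regulator known from neurons, was at 98.7, 8.93 and 68.5 CPM and had no count in hematopoietic mesoderm, at least 94.0-fold higher (edgeR adjusted p = 0.00838). Cyp4f15, a cytochrome P450, was at 31.6, 9.29 and 39.0 CPM against no count, at least 42.7-fold higher (edgeR adjusted p = 0.0148). Both were called in every fit that left out a library. Tmem63a, Sdk2, Tdo2, Prmt2, Ethe1 and Zcchc12 also had no count in hematopoietic mesoderm, with edgeR adjusted p from 0.0205 (Tmem63a) to 0.0481 (Zcchc12), and each of these 6 calls was lost without at least 1 library. Tdo2, which degrades tryptophan, was at 6.45, 88.9 and 3.70 CPM in the YFP-positive libraries, and its edgeR adjusted p was 0.0509 to 0.0872 without YFP-positive library 2 or without hematopoietic library 1, 2 or 3.

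In hematopoietic mesoderm, Wnk4, a kinase that regulates ion transport, was even, at 145, 164 and 139 CPM against 0.624, 2.73 and 0.555 CPM (log2 fold change -6.80 ± 1.19, edgeR adjusted p = 0.0145). Its edgeR adjusted p was 0.0513 without YFP-positive library 1 and 0.0596 without YFP-positive library 3. Myzap, a junction protein named for the heart muscle, was at 131, 55.6 and 9.87 CPM and had 1 count in all in YFP-positive mesoderm, a ratio of 972-fold (95% counting interval 174 to 38450) (edgeR adjusted p = 0.0229, and 0.0602 to 0.0757 without YFP-positive library 1, 2 or 3 or without hematopoietic library 1). Ptp4a3, a phosphatase, was at 58.8, 57.9 and 23.5 CPM against 0, 0.364 and 0.370 CPM (edgeR adjusted p = 0.0215, and 0.0574 without YFP-positive library 2 and 0.0630 without YFP-positive library 3). Nrip3 was at 257, 198 and 71.2 CPM against 0.208, 1.64 and 0 CPM (edgeR adjusted p = 0.0426, and 0.0541 to 0.111 without YFP-positive library 1, 2 or 3 or without hematopoietic library 1 or 2). Espn, an actin-bundling protein, and Pla2g16, a phospholipase, had no count in YFP-positive mesoderm and lay mostly in hematopoietic library 1, at 79.5, 1.91 and 11.6 CPM and 58.3, 17.7 and 5.67 CPM. Their edgeR adjusted p of 0.0413 and 0.0387 became 0.0786 to 0.0897 without YFP-positive library 1, 2 or 3 or without hematopoietic library 1 for Espn and 0.0726 to 0.0826 without YFP-positive library 1, 2 or 3 or without hematopoietic library 1 for Pla2g16.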

How the data were processed

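RNA of 12 sorted libraries from mouse embryos was prepared with an Agilent nanoprep kit and amplified with NuGEN Ovation kits, per the labels' protocols. The deposited values are raw counts of reads per gene, with 5 summary rows per file that name no gene. Reads in genes made up 18.3% to 20.7% of all reads tallied in the 6 libraries compared, and the summary rows were left out. The submitters' processing notes name STAR 2.5.0a, Picard, HTSeq 0.6.0, DESeq2 and the build mm10, with no role or order. The annotation release and the strand setting of the counting are not given in the sources used here.

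Of 38924 genes, 37607 were matched to a symbol. edgeR 4.0.16 (R 4.3.3) fitted the counts of all 12 libraries by cell type, with trimmed-mean scaling, the default expression filter and a quasi-likelihood test, and p-values were adjusted over all 14170 genes tested. The fit pools the spread of 4 types whose within-type biological coefficients of variation were 0.900 (YFP-positive), 0.605 (YFP-negative), 0.327 (endoderm) and 1.06 (hematopoietic). Folds against a type with no count use a floor of 3 counts per library, and ratios against 1 to 4 counts carry exact binomial intervals. The tests were tried on simulated counts with each type's own spread. There the fit to all 12 libraries called a larger share of unchanged genes than the 2-type fit, and DESeq2 a larger share than either. The fit to all 12 libraries was kept as the main fit because it had been chosen first. Alternatives were DESeq2 1.42.0, limma 3.58.1 voom with a variance for each type, other scaling and filters, narrower sets of types, a replicate block and each of the 6 libraries left out. Replicates differed by more than sampling noise, with chi-square values per degree of freedom of 65.0 to 113 between replicates of the 2 types compared.

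File names give same-numbered libraries of all types 1 date-like string, whose meaning is not stated. Between YFP-positive and hematopoietic libraries of 1 number, deviations from the type means had correlations of 0.0214, 0.0213 and 0.0118, too weak to treat the numbers as pairs.

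Genes were named by rule: Foxa2, Epcam, Kdr and Pdgfra, then in each direction the 10 largest changes among called genes with a mean of at least 10 CPM in the higher type, no overlap between the types and no predicted gene or pseudogene, then the called genes of each list and the 2 most abundant genes of each list. Every other gene named was chosen after its values were seen. Foxa2, Epcam, Kdr and Pdgfra were named as likely sort markers, although the labels do not state the gates. The members and gene lists were chosen with earlier results of these data known. Of 31 Hox genes listed, 30 were measured and the other was not analysed here.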

Additional observations from a re-analysis of the deposited data

How the results depend on the processing

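The 253 calls (163 higher in YFP-positive, 90 higher in hematopoietic mesoderm) became 1491 (884 and 607) with DESeq2, 45 (26 and 19) with only the 3 mesoderm types, 13 (6 and 7) with only the 2 types compared and 12 (2 and 10) with limma voom and a variance for each type. Leaving out 1 library gave 106 to 426 calls, 65 to 288 higher in YFP-positive and 41 to 163 higher in hematopoietic mesoderm. DESeq2 size factors gave 256, no expression filter 308 and a filter at a mean of 5 CPM 317. Of the 253, 68 were called whichever of the 6 libraries was left out and 17 were lost in all 6 of these fits. The cause was not tested.

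With the replicate number as a block, 133 genes were called (83 and 50). Among the 88 genes chosen by the naming rule, 17 lost their call. The 88 include genes that had no call in the main fit and so none to lose. Same-numbered libraries correlated best with each other in each of the 3 cases, though weakly, and their file names share a string whose meaning is not stated.

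Direction turned for a few uncalled genes. The log2 fold change of Epcam was 0.93 with voom and -1.10 to 1.03 when a library was left out. Over the same left-out libraries it was -0.027 to 3.83 for Foxa2, -0.42 to 0.13 for Tpm1, -0.12 to 0.24 for Car2, -0.87 to 0.014 for Bmpr2 and -0.11 to 0.066 for Dnmt3b. Levels at or under 3 counts, or 0.520 to 0.723 CPM, could not be compared at this depth.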

Other observations

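Called genes outside the lists, singled out after their values were seen, included further genes that guide cell movement. The semaphorin Sema5a was at 183, 89.7 and 110.5 CPM in YFP-positive and 0.482, 6.41 and 2.52 CPM in hematopoietic mesoderm (log2 fold change 5.31 ± 0.77, edgeR adjusted p = 0.00672). The semaphorin receptor Plxna2 was at 333, 291 and 496 CPM against 26.7, 87.3 and 133 CPM (log2 fold change 2.18 ± 0.41, edgeR adjusted p = 0.0216, and 0.0669 without YFP-positive library 3). In the opposite direction, the ephrin Efnb2 was at 485, 608 and 325 CPM in hematopoietic and 105, 101 and 147 CPM in YFP-positive mesoderm (edgeR adjusted p = 0.00543). Reln, a large extracellular glycoprotein, was at 409, 579.8 and 228 CPM against 17.3, 22.6 and 6.48 CPM (log2 fold change -4.71 ± 0.63, edgeR adjusted p = 0.00432), and it was also called with only these 2 types fitted. Sema5a, Efnb2 and Reln were called whichever of the 6 libraries was left out.

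Maf, a leucine zipper factor, was higher in hematopoietic mesoderm, at 123, 46.4 and 81.3 CPM against 0.208, 2.00 and 0.740 CPM in YFP-positive mesoderm (log2 fold change -6.36 ± 0.93, edgeR adjusted p = 0.00672). Lcp1, an actin-bundling protein of blood cells, was at 129.6, 25.3 and 51.0 CPM against 0.833, 0.547 and 2.59 CPM (log2 fold change -5.67 ± 0.97, edgeR adjusted p = 0.0142). Maf and Lcp1 were called whichever of the 6 libraries was left out, and the libraries of neither gene overlapped between the types.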
